A study of Mus musculus with 4 samples.

Results

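A set of 10 genes of the mucous layer of the ocular surface was followed through the deposited transcriptomes of the mouse lower eyelid. The genes were chosen by name for their known roles, with earlier results of these data known. They are the gel-forming mucin Muc5ac, the membrane mucins Muc1, Muc4, Muc16 and Muc20 and the trefoil peptides Tff1 and Tff2. The others are the goblet cell regulators Spdef and Agr2, and the surface protein Psca. These are 10 of the 15816 gene symbols that at least 1 library lists. Of the 10, 9 were listed in every library and Muc16 in none. The tissue came from wild-type mice of the inbred laboratory strain C57BL/6, with no transgene or treatment in any group. There were 4 groups with 1 library each, from a male and a female group of 3 months, called young here, and a male and a female group of 2 years, called old. How many mice a library pools is not in the labels. Levels are in RPKM, reads per kilobase of gene scaled to the total mapped, which puts genes of different length on one scale.

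The inner face of the eyelid is lined by conjunctiva, a stratified mucosal epithelium with goblet cells among its surface cells. Goblet cells package and release the gel-forming mucin, which traps debris in the tear film, while the epithelial cells carry membrane mucins that form a glycocalyx and keep the surface wettable. Trefoil peptides are small secreted proteins that associate with mucus and aid epithelial repair. Spdef is the transcription factor that drives goblet cell maturation, and Agr2 is a disulfide isomerase of the endoplasmic reticulum needed for mucin assembly in the mouse intestine. Psca is a small glycolipid-anchored protein of the Ly6 family found on the surface of several epithelia.

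The tables listed 14800 to 15299 genes per library, and total base coverage was 3.16 gigabases in the old female library and 3.78 to 3.91 in the other 3. The label of the tissue was checked against markers. All 6 genes taken as goblet cell markers (Muc5ac, Spdef, Agr2, Tff1, Fcgbp and Clca1) and all 5 mucosal keratins (Krt13, Krt4, Krt19, Krt8 and Krt18) were listed in every library. Whether the symbol Clca1 names the goblet cell gene of its family here was not checked. Clca3, of the same family, had 0.137 to 0.408 RPKM and was lowest in old females. Summed over the 6, the goblet markers had 451, 542, 722 and 1110.2 RPKM in the young male, young female, old male and old female libraries. The mucosal keratins had 4482, 7073, 6326 and 1269 RPKM in that order. The old female library thus had the highest goblet sum and the lowest keratin sum. Muc5ac, Spdef, Agr2 and Tff1 are members of the set, so the goblet sum is not separate from their levels below. Of the other goblet markers, Fcgbp was highest in old males (122 RPKM) and Clca1 in old females (1.90 RPKM). Of the keratins, Krt18 was highest in old females and Krt8 lowest in young males. The lid also holds meibomian glands, skin, muscle and dermis. In such bulk tissue, fewer cells of a type and less RNA per cell cannot be told apart.

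Promoter windows from RefSeq (build GRCm38.p6, 250 bases before to 50 bases after the annotated start) were found for 6 of the 10 genes, and not for Muc5ac, Tff1, Tff2 or Psca. The windows of 4 are printed because these genes stand on both sides of the age pattern described next: Spdef and Agr2 were higher in both old libraries, whereas Muc1 and Muc4 were lowest in old females. Capitals mark GGAT, the core that Spdef, an ETS-family factor, prefers in DNA, and TATAAA, the TATA box, each on either strand (ATCC and TTTATA on the other). The windows lie at chr17:27728902-27729201 (minus strand) for Spdef, chr12:35992675-35992974 (plus strand) for Agr2, chr3:89228806-89229105 (plus strand) for Muc1 and chr16:32735636-32735935 (plus strand) for Muc4.
Spdef: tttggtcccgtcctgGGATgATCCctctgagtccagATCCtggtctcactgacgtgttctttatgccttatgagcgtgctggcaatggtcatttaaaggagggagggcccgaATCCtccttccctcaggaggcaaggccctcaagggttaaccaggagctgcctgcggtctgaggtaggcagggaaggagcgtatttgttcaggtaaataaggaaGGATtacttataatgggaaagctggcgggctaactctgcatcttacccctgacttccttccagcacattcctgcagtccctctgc
Agr2: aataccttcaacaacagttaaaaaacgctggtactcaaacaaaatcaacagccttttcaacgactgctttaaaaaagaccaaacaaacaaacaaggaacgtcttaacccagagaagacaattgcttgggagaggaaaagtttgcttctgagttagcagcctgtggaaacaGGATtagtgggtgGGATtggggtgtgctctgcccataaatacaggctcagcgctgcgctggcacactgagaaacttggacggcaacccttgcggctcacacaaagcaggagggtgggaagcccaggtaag
Muc1: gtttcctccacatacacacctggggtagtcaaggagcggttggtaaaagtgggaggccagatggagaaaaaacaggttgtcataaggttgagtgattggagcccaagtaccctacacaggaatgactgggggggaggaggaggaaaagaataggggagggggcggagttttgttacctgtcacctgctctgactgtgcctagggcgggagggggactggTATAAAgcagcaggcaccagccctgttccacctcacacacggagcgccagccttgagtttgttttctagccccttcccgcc
Muc4: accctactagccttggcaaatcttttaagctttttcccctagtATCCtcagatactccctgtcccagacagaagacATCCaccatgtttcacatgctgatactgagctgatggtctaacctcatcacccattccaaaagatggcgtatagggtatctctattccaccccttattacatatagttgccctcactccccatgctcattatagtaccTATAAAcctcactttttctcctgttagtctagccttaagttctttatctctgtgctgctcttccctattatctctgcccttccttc
The Spdef window held 5 copies of GGAT, those of Agr2 and Muc4 held 2 each, that of Muc16 held 1, and those of Muc1 and Muc20 held 0. Of 32851 promoter windows of this length, 79.6% held at least 1 copy, with a median of 2, and 4.43% held at least 5. TATAAA stood in the Muc1 window at position -31 and in the Muc4 window at position -36, counted from 0 at the start, and in none of the other 4. It was found in 13.6% of all windows. A match describes the letters only, and no binding was measured.

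Muc5ac, on chromosome 7 from 141789011 to 141819135 of the mm10 build, was the most abundant gel-forming mucin of the lid and highest in the old female library. Its level was 171 RPKM in young males, 200.1 in young females, 216 in old males and 457 in old females, so both old levels lay above both young ones. It ranked 326, 290, 254 and 105 among the listed genes in that order. The old level was 2.28-fold the young one in females and 1.26-fold in males. With 1 library per group these differences have no replicate check.

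Tff1, on chromosome 17 from 31161396 to 31165053, was nearly as abundant as Muc5ac and was also higher in both old libraries. It had 124 RPKM in young males, 135 in young females, 196 in old males and 319 in old females, so both old levels lay above both young ones. The ratio of Tff1 to Muc5ac stayed between 0.673 and 0.906 in the 4 libraries. In GENCODE vM21, 221 of the exonic bases of Tff1 (31.4%) also belong to Gm15318 on the opposite strand, and no source used here says whether counting used the strand. LOC102631757, the listed gene that overlaps the Tff1 span, had 0.129 to 0.197 RPKM.

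Tff2, on the same chromosome from 31141062 to 31144282, was close to the lowest value listed in any table, 0.12502 RPKM, in the young libraries and higher in both old ones. It had 0.253 RPKM in young males, 0.294 in young females, 1.89 in old males and 1.59 in old females. The level ratio of old to young was 7.49 in males and 5.42 in females. These values rest on a summed coverage of 614, 700, 4714 and 3204 bases in the same order, the smallest of the 9 listed genes. Tff1 was 103-fold to 488-fold more abundant than Tff2 in the same library.

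Spdef, on chromosome 17 from 27714447 to 27728951, had its lowest levels in the young libraries, with 9.12 RPKM in males and 10.2 in females. The old libraries had 16.9 RPKM in males and 23.7 in females, 1.86-fold and 2.33-fold the young levels. Agr2, on chromosome 12 from 35992925 to 36004081, had 95.5 RPKM in young males and 133 in young females, with 170.4 and 223 at 2 years. Its ratio of old to young was 1.78 in males and 1.67 in females. For each of the 5 secretory genes both old levels lay above both young ones. All 5 had their lowest level in the young male library, and 4 of them their highest in the old female.

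**Figure D1:**
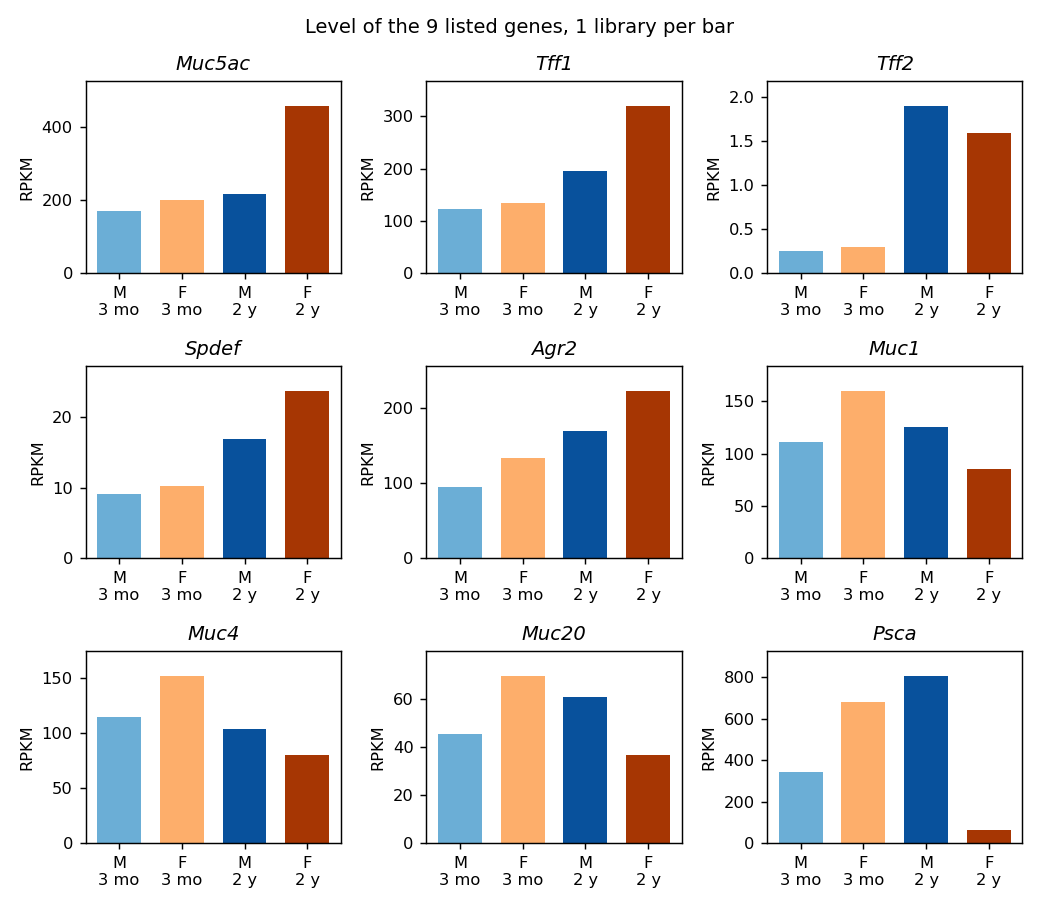
RPKM (vertical axis, from 0, scaled per panel) of the 9 listed genes in each of the 4 libraries, 1 bar per library (M male, F female, 3 months or 2 years). Muc5ac, Tff1, Spdef and Agr2 reach their highest bar in the old female library, whereas Muc1, Muc4, Muc20 and Psca have their lowest bar there.

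The 3 listed membrane mucins of the set went another way. Muc1, on chromosome 3 from 89229056 to 89233381, which has a short cytoplasmic tail that signals, had 111 RPKM in young males, 159.7 in young females, 125 in old males and 85.6 in old females. Muc4, on chromosome 16 from 32735886 to 32782390, a large mucin that can bind the receptor ErbB2, had 114, 151, 104 and 80.0 RPKM in the same order. Muc20, on chromosome 16 from 32777419 to 32797435, had 45.4, 69.5, 60.95 and 36.8 RPKM. All 3 were highest in the young female library and lowest in the old female one. The young female level was 1.86-fold, 1.89-fold and 1.89-fold the old one for Muc1, Muc4 and Muc20, just under the 2-fold limit used for calls. In males the old level was 1.13-fold the young one for Muc1, 0.906-fold for Muc4 and 1.34-fold for Muc20.

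Muc4 and Muc20 lie tail to tail on opposite strands, and their spans overlap by 4972 bases. In GENCODE vM21 they share 627 exonic bases, which is 5.33% of the exonic bases of Muc4 and 15.6% of those of Muc20. Their readings could therefore share reads, and the share was not tested. The ratio of Muc20 to Muc4 was 0.397 in young males, 0.460 in young females, 0.588 in old males and 0.461 in old females. Muc16, a very large membrane mucin of the ocular surface and airway, was in none of the 4 tables, so it lay below the listing limit or had no value.

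Psca, on chromosome 15 from 74714839 to 74717065, had the widest range of the set. It had 341 RPKM in young males, 679 in young females, 803 in old males and 66.5 in old females. It was the most abundant of the 10 genes in the first 3 libraries, at rank 157, 78 and 58 of the listed genes, and stood at rank 1100 in the old female library. The young female level was 10.2-fold the old female one, whereas in males the old level was 2.36-fold the young one. Of 12094 analysed genes, 11 had a lower age ratio than Psca in females and 57 a higher one in males.

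Of the 5 keratins of the mucosal surface, Krt13, Krt4 and Krt19 were lowest in the same library, and Krt8 and Krt18 were not. Krt13 had 2286, 3842, 3080.5 and 392 RPKM in the young male, young female, old male and old female libraries, and Krt4, its usual partner, 1663, 2390.3, 2541 and 486. The ratio of Psca to Krt13 was 0.149, 0.177, 0.261 and 0.170 in that order. It therefore varied less than Psca itself, whose highest level was 12.1-fold its lowest. Krt13 has a pattern close to that of Psca, so the steadier ratio is not a separate result. The ratio of Psca to Krt4 was 0.205, 0.284, 0.316 and 0.137. The ratio of Muc4 to Krt13 was 0.0501, 0.0394, 0.0336 and 0.204, so Muc4 was high relative to Krt13 in the old female library. Its own level was lowest there, and relative to Krt19 the rise was smaller (0.272, 0.225, 0.191 and 0.365). Krt8 had 78.2, 125.6, 111 and 97.9 RPKM. Its partner Krt18, a keratin of simple and glandular epithelium, had 35.0, 43.9, 50.8 and 73.4 RPKM and was highest where Psca was lowest. The part that the cell makeup of the libraries plays in these levels was not tested.

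**Figure D2:**
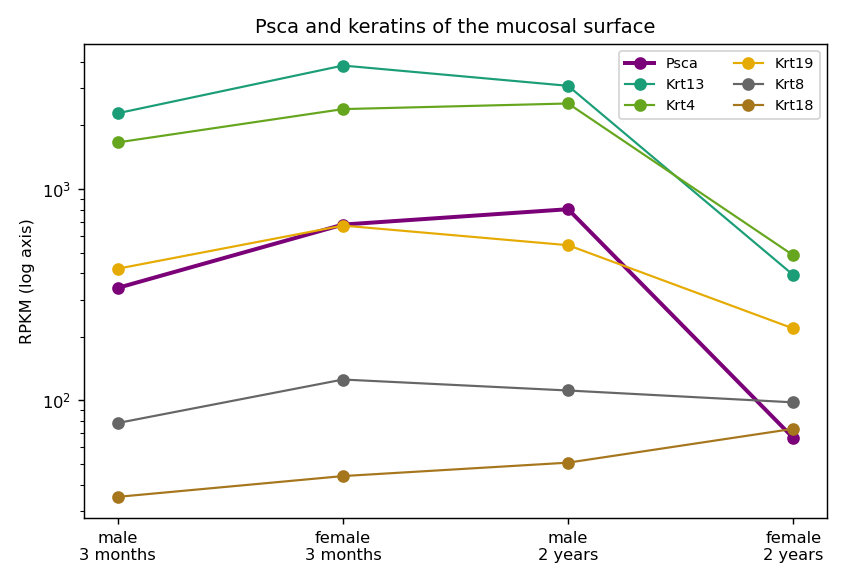
RPKM on a log axis of Psca and of 5 keratins of the mucosal surface in the 4 libraries, 1 point per library, with lines joining the points of a gene. Psca, Krt13, Krt4 and Krt19 are lowest in the old female library (66.5, 392, 486 and 219 RPKM), whereas Krt18 is highest there.

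Age was compared within each sex on log2(RPKM + 1), with at least 2-fold as a call, among the 12094 genes that averaged 1 RPKM or more over the libraries. The 9 listed genes pass that filter, Tff2 only through its old libraries, so its calls with age are partly set by the filter. In females 4 of the 9 passed 2-fold upward with age, against 5.33% of all analysed genes: Tff1 (log2 ratio 1.24), Muc5ac (1.19), Spdef (1.14) and Tff2 (1.003). Psca was the 1 that was at least 2-fold lower (-3.33), against 3.37% of all genes. Agr2 had 0.74, and Muc1, Muc20 and Muc4 had -0.89, -0.90 and -0.91. In males Psca (1.23) and Tff2 (1.21) passed 2-fold upward, against 0.827% of all genes, and 0 of 9 were 2-fold lower, against 0.215%. Agr2 and Spdef had 0.83 each, Tff1 0.66, Muc20 0.42, Muc5ac 0.34, Muc1 0.18 and Muc4 -0.14. The median of the 9 was 0.74 in females and 0.66 in males, beside medians of 0.07 and -0.01 over all analysed genes. The members were chosen with earlier results of these data known, so these counts and medians only describe them. Tff2 sits at the limit in females, and with a pseudocount of 5 its ratios were 0.32 in females and 0.39 in males. A mean of at least 5 RPKM leaves Tff2 out. With it 3 of 8 members were 2-fold higher in old females, beside 393 of 8350 genes. In males it was 1 of 8, beside 66 of 8350.

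The secretory genes had the same sign in both sexes and most of the surface genes did not. Muc5ac, Tff1, Tff2, Spdef and Agr2 were higher in both old libraries, as were 22.3% of all analysed genes. For Tff2 that is partly set by the filter. Muc4 was lower in both, as were 16.2%. Muc1, Muc20 and Psca were higher with age in males and lower in females, as were 24.7%. The difference of the age ratio between the sexes (female minus male, log2) was -4.57 for Psca, -1.32 for Muc20, -1.07 for Muc1 and -0.77 for Muc4. It was 0.85 for Muc5ac, 0.58 for Tff1, 0.32 for Spdef, -0.09 for Agr2 and -0.20 for Tff2. With 1 library per group these differences were not tested.

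**Figure D3:**
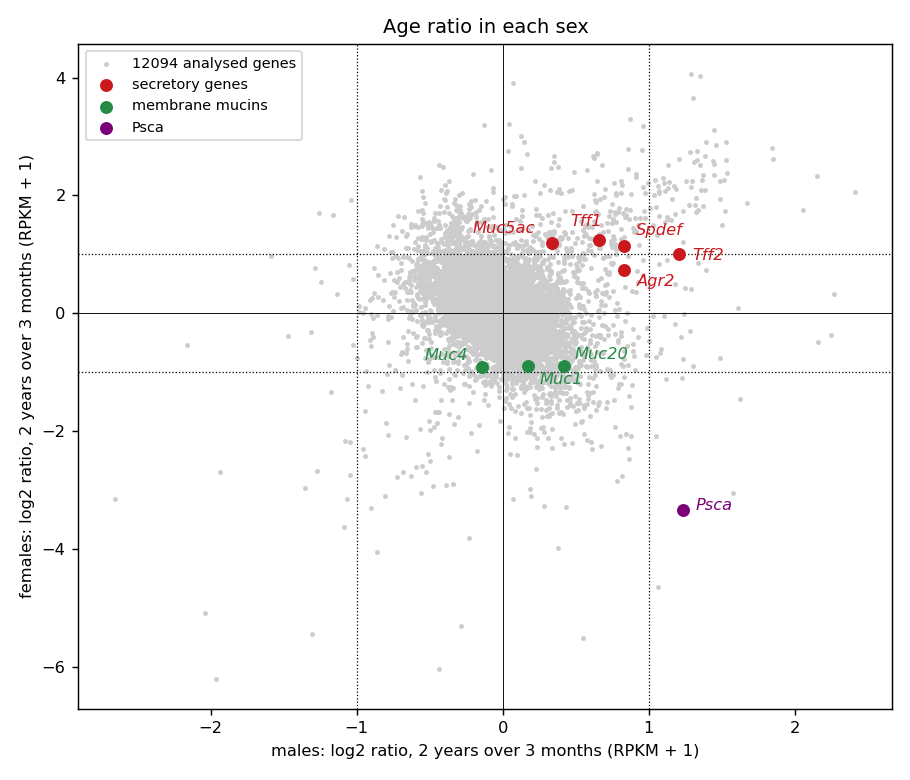
Log2 ratio of 2 years over 3 months in males (horizontal) and females (vertical), on RPKM + 1, for the 12094 analysed genes (grey points) and the 9 listed genes (coloured points); dotted lines mark 2-fold. The 5 secretory genes lie at the upper right, the 3 membrane mucins near -0.9 in females, and Psca at -3.33 in females and 1.23 in males.

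The averaged age effect was fitted with limma over all analysed genes, with sex as a term and 1 residual degree of freedom. No gene passed an adjusted p of 0.05 (0 of 12094, with 355 at an unadjusted p under 0.05), and the lowest adjusted p was 1. Spdef was higher at 2 years by 0.98 ± 0.19 (log2, mean over the sexes with its SE, from 2 libraries per age) and Tff2 by 1.11 ± 0.20. Tff1 had 0.95 ± 0.33, Agr2 0.78 ± 0.28 and Muc5ac 0.76 ± 0.39. Muc4 had -0.53 ± 0.32, Muc1 -0.36 ± 0.38, Muc20 -0.24 ± 0.39 and Psca -1.05 ± 1.21. The adjusted p was 1 for each of the 9. With 1 library left out there is no residual degree of freedom for both terms, so age was fitted alone. Such a fit without the old male library, 1 old against 2 young, called 153 genes and 0 of the 9. Over the 4 such fits the averaged difference ran from 0.22 to 1.30 for Muc5ac, from 0.60 to 1.30 for Tff1, from 0.54 to 1.02 for Agr2, from -0.73 to -0.33 for Muc4 and from -0.63 to -0.09 for Muc1. Muc20 ran from -0.60 to 0.12, above 0 without either female library (0.06 without the young one), and Psca from -2.84 to 0.74, above 0 without the old female one. The errors rest in part on how far the age ratios of the sexes lie apart. In limma they are also moderated toward the spread of analysed genes at like level. They are thus partly borrowed from other genes: Agr2, whose age ratios differ by -0.09 between the sexes, had an SE of 0.28. The SE of Psca exceeds its averaged difference.

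The sexes were compared at each age with the same libraries, so these ratios are not independent of those above. At 3 months all 9 genes were higher in the female library, where 47.5% of all analysed genes were. The log2 ratios of female over male ran from 0.05 for Tff2 to 0.99 for Psca. Of the 9, 0 were 2-fold apart, against 0.364% of genes 2-fold higher and 0.976% 2-fold lower in the young female library. At 2 years Muc5ac was at least 2-fold higher in the female library (1.08, against 1.78% of genes) and Psca at least 2-fold lower (-3.57, against 1.98%). The averaged sex effect called 0 of 12094 genes with limma (74 at an unadjusted p under 0.05), and the lowest adjusted p was 0.156. With sex fitted alone, and so not separated from age, 25 genes were called without the young female library and 3 without the old female one, with 0 of the 9 in either.

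The balance of Muc5ac to Muc1, Muc4 and Muc20 differed most in the old female library. The summed level of Muc1, Muc4 and Muc20 was 271 RPKM in young males, 380.4 in young females, 290.0 in old males and 202 in old females. The ratio of Muc5ac to that sum was 0.631, 0.526, 0.745 and 2.26 in that order. Muc5ac thus had more RPKM than the 3 membrane mucins together in the old female library alone. Within the secretory group Agr2 to Muc5ac was between 0.488 and 0.789 and Spdef to Muc5ac between 0.0509 and 0.0785, whereas Tff1 to Tff2 ranged from 103 to 488.

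**Figure D4:**
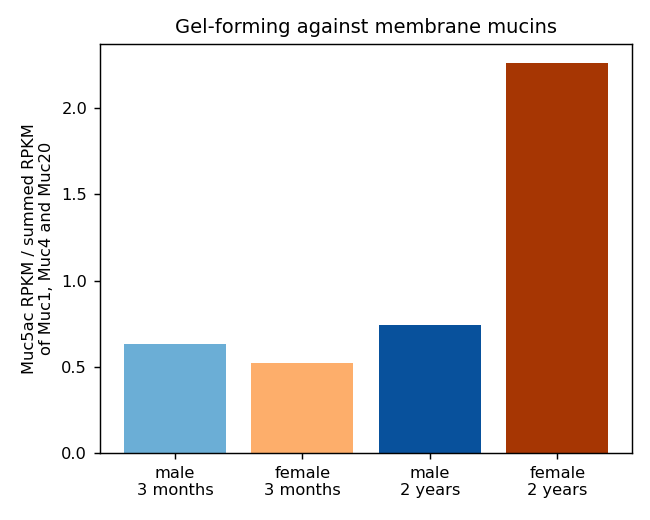
Ratio of Muc5ac RPKM to the summed RPKM of Muc1, Muc4 and Muc20 in each library, 1 bar per library, axis from 0. The ratio is 0.526 to 0.745 in 3 libraries and 2.26 in the old female one.

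Most other genes of the mucin family were not listed in the lid, and a symbol may also be missing because the gene models lack it. Of 18 other mucin and mucin-like genes, 7 were listed and 11 were not, among them Muc2 and Muc6, gel-forming mucins of gut and stomach. The 3 analysed were Muc5b, Muc13 and Muc15. Muc5b, the gel-forming mucin next to Muc5ac, had 4.24, 5.33, 4.15 and 14.1 RPKM in the young male, young female, old male and old female libraries. Its log2 age ratio was 1.25 in females, the 1 of the 3 past 2-fold, and -0.03 in males. Muc5ac was 32.5-fold to 52.1-fold more abundant than Muc5b in the same library. Muc13, a membrane mucin of gut epithelium, had 5.85, 9.24, 8.07 and 15.8 RPKM, with log2 age ratios of 0.71 and 0.40 (females, males). Unlike Muc1, Muc4 and Muc20, it was highest in the old female library. Muc15, the most abundant of the list, had 34.6, 23.1, 28.7 and 29.0 RPKM, with ratios of 0.32 and -0.26. Emcn, the sialomucin of endothelium, was under the filter at 0.333, 0.193, 0.812 and 1.91 RPKM.

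Other goblet cell and trefoil genes had higher medians than all analysed genes (0.07 in females and -0.01 in males). Of 25 such genes 18 were listed and 17 analysed, with a median of 0.43 in females and one of 0.29 in males, and 10 of the 17 had a positive age ratio in both sexes, as did 22.3% of all analysed genes. Gp2, a glycoprotein of secretory granules that binds bacteria, was the most abundant, at 468, 614, 799.9 and 1985 RPKM, and was the 1 of 17 past 2-fold in females (1.69, with 0.77 in males), beside 5.33% of all genes. Fcgbp, a mucus protein that cross-links with mucins, had 50.7, 63.3, 122 and 85.4 RPKM and was the 1 past 2-fold in males (1.25, with 0.43 in females), beside 0.827% of all genes. These calls are on RPKM + 1. With no pseudocount, the low genes Spink4 (3.23-fold), Clca1 (2.58-fold) and Pdia5 (2.05-fold) also passed 2-fold in females. Spink4 did so in males (2.66-fold). Clca3, listed but under the filter, went the other way: its young female level was 2.97-fold the old one. Klf4, a transcription factor of goblet and surface cells, had -0.75 and 0.45, and Xbp1, of the unfolded protein response, 0.49 and -0.06. Tff3, the trefoil peptide of intestinal goblet cells, and Foxa2 were not listed.

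Of 24 analysed genes that build mucin O-glycans, 2 lay above and 3 below their young level by 2-fold or more in females, beside 5.33% and 3.37% of all analysed genes, and 0 did in males. The medians were -0.04 in females, beside 0.07 over all genes, and 0.16 in males, beside -0.01. The lower ones were the sialyltransferase St3gal4 (-1.40), Galnt3, which starts O-glycans (-1.35), and the sialic acid transporter Slc35a1 (-1.05). The higher ones were Galnt6 (1.29) and the fucosyltransferase Fut2 (1.22), both named after their values were seen. St6galnac1, the most abundant of the list, had 172, 267, 217 and 138 RPKM. In males these 6 had ratios of -0.36 for Fut2 and 0.31 to 0.43 for the others.

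Few partners and regulators of the mucins passed 2-fold; over all analysed genes 5.33% were higher and 3.37% lower by that much in females, and 0.827% and 0.215% in males. Of 15 analysed partner and shedding genes 0 were 2-fold apart in either sex, with medians of -0.21 and 0.00. Lgals3, the galectin that binds membrane mucins at the cell surface, had 392, 502, 539 and 281 RPKM, with the lowest value in the old female library. Of 13 analysed signalling genes 1 was at least 2-fold lower in females. It was P2ry2, the nucleotide receptor that triggers mucin release, at 23.0, 29.8, 29.8 and 11.2 RPKM (log2 -1.34 in females and 0.36 in males). The cytokine genes Il4 and Ifng were not listed, and Stat6, which acts below the receptors of Il4 and Il13, had -0.22 and 0.01. In the Ly6 family, to which Psca belongs, 2 of 11 analysed were at least 2-fold lower in females and 0 in males. They were Slurp1 (-1.68 and -0.46) and Ly6a (-1.05 and 0.74), while Ly6d had 0.24 and -0.57.

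**Figure D5:**
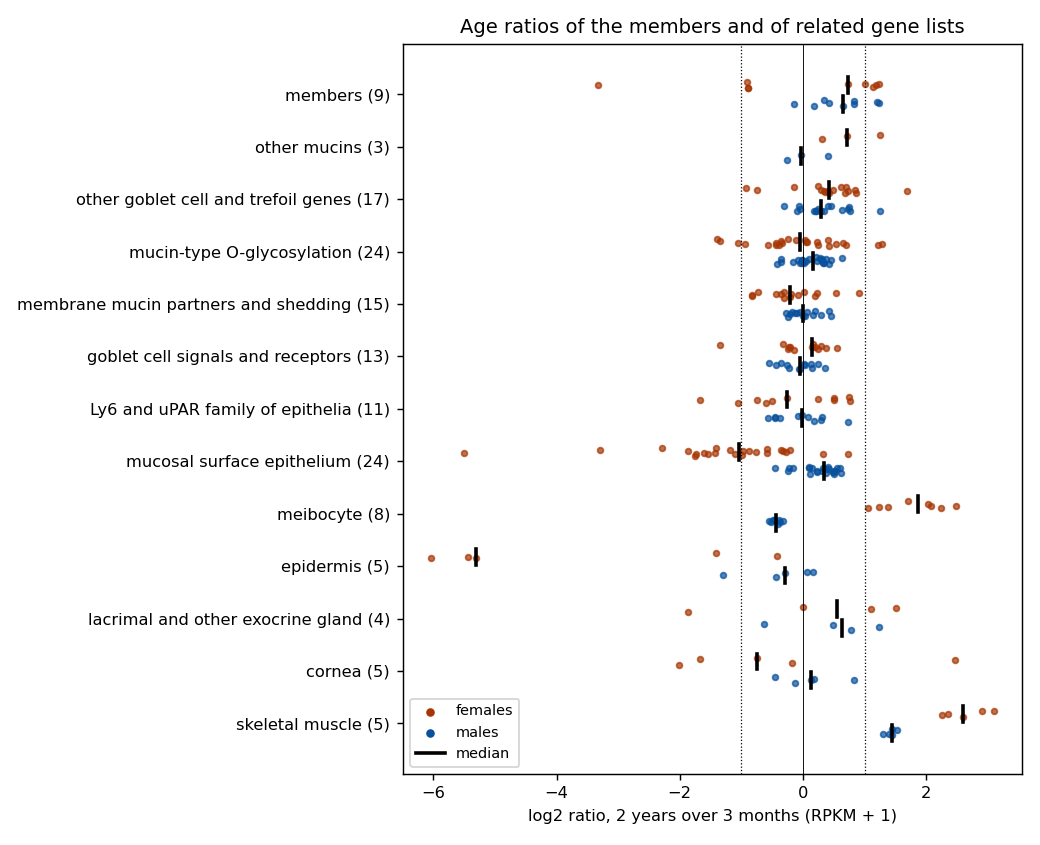
Log2 ratio of 2 years over 3 months on RPKM + 1 for the 9 analysed members and for 12 related gene lists, with the number of analysed genes in brackets; each point is a gene, in females (brown) or males (blue), black bars are medians and dotted lines mark 2-fold. The mucosal surface list has medians of -1.04 in females and 0.35 in males, and the goblet list 0.43 and 0.29.

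Markers of the other tissues of the lid differed with age in the same libraries. The 24 analysed genes of the mucosal surface had a median of -1.04 in females and one of 0.35 in males, and 12 of them were 2-fold lower with age in females, 0 in males. All 8 meibocyte markers passed 2-fold upward in females and 0 in males, and their summed level was 9275, 3960.2, 6860.2 and 12691 RPKM. The 5 skeletal muscle genes passed 2-fold upward in both sexes, with sums of 216, 174, 589 and 1064 RPKM. Of the 5 analysed epidermal genes 4 were 2-fold lower in the old female library, with Krt1 at 6.46 RPKM against 490.1 in the young female, and Flg was not listed. In males 1 of the 5, Lor, was 2-fold lower with age (-1.305). Exocrine gland genes had sums of 654, 931, 1147 and 846 RPKM. Of the 4 analysed, 2 were 2-fold higher and 1 lower with age in females. They were Lyz2, a lysozyme that macrophages also make (1.52, with -0.63 in males), Pigr, which carries IgA into secretions (1.10, with 0.78), and the water channel gene Aqp5 (-1.87, with 0.49), while Ltf, lactoferrin, had -0.0024 and 1.24. The defining corneal keratin Krt12 had 0.179 to 2.55 RPKM. The part of these tissues in the levels of the mucin genes was not tested.

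Likeness of pattern was taken as the distance between log2(RPKM + 1) profiles over the 4 libraries, each centred on its mean. Of the secretory genes, Spdef, Tff1, Agr2 and Muc5ac had like profiles: 11 of the 12094 genes were nearer to Spdef than Tff1 was (distance 0.18), 60 nearer than Agr2 and 184 nearer than Muc5ac, whereas 3488 genes were nearer to Muc5ac than Tff2 was (distance 0.95). The gene nearest to Agr2 was Itln1, intelectin of goblet and Paneth cells (0.09), at 2.94, 4.11, 5.63 and 8.16 RPKM. Those nearest to Psca were Lce3f (0.52), Krt13 (0.60), Defb14 (0.68), Lce3b (0.74) and Lce3e (0.75), which are cornified envelope genes, a mucosal keratin and a beta-defensin. Those nearest to Spdef were Pvalb, Asb5, BC030870, Cfb and Inmt, of which Pvalb is a calcium buffer of fast muscle. The 5 nearest to Muc5ac were Sod3, Col14a1, Fgfr1, Cldn2 and Trf. With 4 libraries many genes share a profile, and with a pseudocount of 0.1 between 1 and 4 of each member's 5 nearest genes were the same.

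Genes beside the members in the genome were mostly at other levels. The nearest listed gene before Muc5ac was Ap2a2, at 18.01 to 20.7 RPKM, and the nearest after it was Muc5b, 19936 bases away. Them6, 4168 bases after Psca, had 1.81, 1.77, 2.63 and 2.37 RPKM and showed no dip in the old female library. Pacsin1, 3329 bases before Spdef, had 0.312 to 0.368 RPKM. Tspan13, 10473 bases after Agr2, had 16.4, 16.9, 20.04 and 31.2 RPKM and, like Agr2, its highest level in the old female library.

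The authors' own comparison of old with young libraries holds few of the 10 genes. The authors' deposited table gives Tff2 a fold of 7.49 in males (Bonferroni value 3.63e-08) and 5.42 in females (1.17e-07). For Spdef the authors' deposited table gives a fold of 2.33 in females (8.46e-08). Muc5ac, Tff1 and Psca are not in it, although their levels in females were over 2-fold apart. The highest level in the authors' deposited table of genes higher in old females is 114 RPKM, and in the authors' deposited table of lower ones it is 109 RPKM. Of the genes whose RPKM, with no pseudocount, was at least 2-fold apart in females, 103 higher and 99 lower ones lie above those levels. No source used here says what variance lies behind these values.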

How the data were processed

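RNA of 4 lower eyelid libraries was measured by sequencing. TopHat, Cufflinks and the mouse build mm10 are named in the submitters' processing notes, without versions or roles. No source used here gives the gene models or the strand setting. The RPKM values deposited by the authors list genes above a lower limit. The second deposited column, called a raw count in the file headers, sums to 3.16 to 3.91 gigabases and was read as base coverage (signal): relative to RPKM it differs by 1 factor per library (0.829 to 1.03). Read depth is thus unknown, and no count test or counting interval is given. The fold (a signed score) and the p-values of the authors' comparisons come, per the file names, from Cyber-T, and are quoted as deposited.

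Of 15816 symbols (2 duplicated ones left out), 15154 were in GENCODE vM21 and 99.8% of these overlapped it; 12094 with a mean of at least 1 RPKM were analysed, with missing genes at 0 and a pseudocount of 1, so log2 ratios understate the change of low genes. Groups of 1 library were compared by ratio, with no p. Averaged effects were fitted with limma 3.58.1 (R 4.3.3), with intensity trend and Benjamini-Hochberg adjustment over all analysed genes. The 1 residual degree of freedom is how far the age ratios of the sexes lie apart, so the p-values hold no spread between replicates. The variance of each gene was moderated toward that of genes at like level. Alternatives were another pseudocount (0.1, 5), no filter or a mean of 5 RPKM, median scaling, missing genes at the listing limit, no trend, and each library left out, with the factor tested as the 1 term. Members and lists were chosen with earlier results of these data known. All 10 members are named, and from each list the 3 most abundant genes and the 2 with the largest age ratio were eligible; other genes are named as markers, as nearest genes or neighbours, or where a short count fell on them, after their values were seen.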

Additional observations from a re-analysis of the deposited data

Results flagged for a closer look

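Psca, Muc20 and Muc1 had age ratios of opposite sign in the sexes, so that the single old library lay above the young one in males and below it in females. The difference of the log2 age ratios (female minus male) was -4.57 for Psca (-3.33 and 1.23), -1.32 for Muc20 (-0.90 and 0.42) and -1.07 for Muc1 (-0.89 and 0.18). None of these differences was tested, since each ratio rests on 1 old and 1 young library.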

How the results depend on the processing

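The age ratios of the 9 members kept their sign under each pseudocount, filter, scaling and missing-value setting in which the gene was analysed. Of 106 such values 102 stayed on the same side of 2-fold; the exceptions were Tff2 with a pseudocount of 5 in both sexes (0.32 and 0.39), Tff2 in females with median scaling (0.97) and Spdef in females with a pseudocount of 5 (0.92). The members at least 2-fold higher in the old library numbered 2 in females and 1 in males with a pseudocount of 5, and 1 in males when genes had to average 5 RPKM, which leaves out Tff2. At 3 months 1 member, Psca, was 2-fold higher in females with median scaling. Over all analysed genes the counts of 2-fold differences with pseudocounts of 0.1 and 5 were 887 and 320 higher and 513 and 239 lower in old females, against 645 and 408, and 200 and 41 higher and 54 and 11 lower in old males, against 100 and 26. At 3 months they were 76 and 19 higher and 212 and 60 lower in females, against 44 and 118, and at 2 years 406 and 93 higher and 311 and 146 lower, against 215 and 240. With that filter the higher genes numbered 393 in old females, 66 in old males and 129 in females over males at 2 years. Genes past 2-fold upward in males and downward in females numbered 14 and 3 with those pseudocounts, against 7. With a pseudocount of 5, 0 other mucins and 0 O-glycosylation genes were 2-fold higher in old females, and 1 Ly6 gene was 2-fold lower. With 1 library left out only the factor tested could be fitted, a change of model as well as of libraries that takes a lone library to vary like the others. These fits called 0 to 153 genes for age, the 153 without the old male library, and 0 to 25 for sex, the 25 without the young female and 3 without the old female library; no member was called. The averaged age difference changed sign in them for Muc20 (-0.60 to 0.12) and Psca (-2.84 to 0.74). The averaged sex difference did so for Muc1 (-0.46 to 0.43), Muc4 (-0.44 to 0.47), Muc20 (-0.50 to 0.40), Tff1 (-0.21 to 1.03), Tff2 (-0.66 to 0.55), Spdef (-0.27 to 0.87) and Psca (-2.96 to 0.38), and for Muc4 also with median scaling (-0.0096). The sex term of the averaged fit sets old against young within each sex; the labels give no replicate numbers for a further block. Low genes such as Tff2 are measured least precisely, and the old female library, with the least coverage, stands apart in several tissue markers. The young female library lay at the other end for several of them. It had the lowest meibocyte sum (3960 RPKM) and the highest mucosal surface sum (20483 RPKM), and each female age ratio sets these libraries against each other.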

Other observations

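The opposite age ratios of Psca are shared by few genes. Of 12094 analysed genes 7 (0.0579%) passed 2-fold upward with age in males and downward in females, and these were named after their values were seen. Beside Psca they were the cornified envelope genes Lce3a, Lce3b and Sprr1b, the calcium-binding protein gene S100a2, the chloride channel regulator Clca4 and BC100530. Lce3a had 28.8, 66.8, 61.4 and 1.71 RPKM in the young male, young female, old male and old female libraries. Clca4 had 13.1, 20.7, 32.0 and 9.11 RPKM, and BC100530, the most abundant, 1659, 2917, 3436 and 690.2. Kera, the keratan sulfate proteoglycan of the corneal stroma, had 0.132, 0.147, 0.235 and 5.36 RPKM, so that it was high in the old female library, where the corneal enzyme gene Aldh3a1 was lowest (1093, 1650, 1243 and 408 RPKM).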
